A study of Mus musculus with 2 samples.

Results

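The mouse Hox genes are 39 symbols, which fill 40 of the 31053 gene rows of the files because Hoxd4 has 2 gene IDs (4 and 15 UMIs, unique molecules counted, over both libraries; summed here). Members were taken by symbol alone, the name Hox with a cluster letter from a to d and a paralogue number, so no measured value chose them. There are 11 Hoxa, 10 Hoxb, 9 Hoxc and 9 Hoxd members. The RNA came from single cells of C57BL/6 mouse mammary gland with the cell marker label CD24highCD29+, read with the 10x Genomics 3' kit, in 2 libraries. Their genotype labels are WT and Fgd5-ko, and the title of the second says cko, which may stand for a conditional knockout. No label says which Cre driver or which part of Fgd5 was used, how old the mice were, how many were pooled, or what P4 in the titles means. In each pair of values below, the library labelled WT comes first and the library labelled Fgd5-ko second.

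Hox proteins are homeodomain transcription factors that give cells along the body axis and the limbs their positional identity. Their genes lie in 4 chromosomal clusters, and genes at the same place in different clusters, the paralogues, resemble each other more than their neighbours do. Low paralogue numbers are used towards the head and high numbers towards the tail, and adult fibroblasts and vessel cells of different body sites keep such patterns. Hox proteins bind DNA with partners of the TALE homeodomain family, the Pbx and Meis proteins, while Polycomb and trithorax complexes hold the clusters silent or active. In the mammary gland Hox genes are known for work in ductal growth and in the mesenchyme that forms the gland.

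On the mouse build GRCm38, in the GENCODE M21 annotation, the Hoxa cluster spans chr6:52155590-52260880 on the minus strand, and the other 3 clusters lie on the plus strand. Hoxb spans chr11:96194316-96368256, Hoxc spans chr15:102921103-103036852 and Hoxd spans chr2:74668310-74765142, outermost members included. The annotation holds 39 of the 40 gene IDs. The files themselves give no coordinates. Models overlap within the clusters: Hoxc5 spans Hoxc6, Hoxc8, Hoxc9 and Hoxc10, Hoxa3 spans Hoxa4, Hoxa5 and Hoxa6, and antisense RNAs run across Hoxb2, Hoxb3 and others. No source used here says whether counting was by strand, so the counts of these neighbours may be shared. The 250 bases before the RefSeq start (GRCm38.p6) are shown for 3 genes, 1 for each pattern described below, and overlap no annotated exon. Those of Hoxb4 and Hoxd8 lie upstream of the gene model. The Hoxa9 window lies inside the GENCODE model of that gene (chr6:52223100-52231089), before a RefSeq start within it. Hoxb4 was counted in epithelium and stroma, Hoxa9 was highest in fibroblasts, and Hoxd8 was highest in endothelium and in 1 basal cluster above the rest of that class. Capitals mark CG, the dinucleotide that DNA methylation acts on.
Hoxb4, chr11:96318017-96318266, plus strand: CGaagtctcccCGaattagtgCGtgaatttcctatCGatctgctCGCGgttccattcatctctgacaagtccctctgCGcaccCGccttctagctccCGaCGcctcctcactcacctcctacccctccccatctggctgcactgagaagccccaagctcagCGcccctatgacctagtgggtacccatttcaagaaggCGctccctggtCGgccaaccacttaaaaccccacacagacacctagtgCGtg
Hoxa9, chr6:52227371-52227620, minus strand: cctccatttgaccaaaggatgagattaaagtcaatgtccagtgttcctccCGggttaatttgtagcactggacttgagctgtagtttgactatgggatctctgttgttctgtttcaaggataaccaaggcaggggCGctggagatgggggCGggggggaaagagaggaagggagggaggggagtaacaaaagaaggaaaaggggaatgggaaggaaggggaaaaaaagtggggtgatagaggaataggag
Hoxd8, chr2:74704365-74704614, plus strand: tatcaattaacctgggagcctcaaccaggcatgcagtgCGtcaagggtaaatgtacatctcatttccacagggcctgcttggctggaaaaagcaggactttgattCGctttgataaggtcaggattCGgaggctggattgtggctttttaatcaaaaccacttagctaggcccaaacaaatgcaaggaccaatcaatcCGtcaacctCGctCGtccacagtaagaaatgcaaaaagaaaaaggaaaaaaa

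Hoxb4 held 14 CG dinucleotides in these 250 bases, Hoxd8 held 6 and Hoxa9 held 3. Of all 32851 RefSeq windows of this length, 29.4%, 50.4% and 71.0% held at least as many. The table has 24 windows of 22 member symbols, with a median of 12.5 CG against 6 over all windows. Both strands were searched for TGATNNAT, a core shared by Pbx and Hox sites, and for TGACAG, the Meis core. TGATNNAT was in 7.68% of all windows and 4 of the 24 member windows, and TGACAG in 15.9% and 2 of 24. Neither string is in the 3 windows shown, which says only that these letters are not in them.

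The library labelled WT held 60566053 UMIs in 10735 barcodes and the library labelled Fgd5-ko 136697801 UMIs in 8798, and 29 of the barcodes used occur in both. Cells were put in 6 classes by marker genes: basal-like (6359 and 6029 cells), luminal progenitor-like (146 and 23), hormone-sensing luminal-like (113 and 10), fibroblast-like (1054 and 573), mural-like, that is pericyte and vascular smooth muscle (195 and 84), and endothelial-like (653 and 89). Basal cells were those of the authors' cell table, whereas fibroblast, mural and endothelial cells came from barcodes outside it. Hox genes were kept out of the genes used for clustering. Class marker sums stood apart: fibroblast markers summed to 25335 and 24516 CPM (UMIs scaled to an equal total for each class) in fibroblasts and to 40.0 to 824 CPM in the basal, mural and endothelial classes. Fgd5 itself, a guanine nucleotide exchange factor, went against the label in basal cells with 30 and 419 UMIs (0.840 and 4.05 CPM), so libraries are named by their labels throughout. Which part of the gene was deleted is not given, and a 3' tag outside it checks nothing. It stood at 88.2 and 107 CPM in endothelial cells. CPM of 3' tags do not scale with transcript length and were used as levels per molecule. Intervals are 95% and cover counting error only.

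Hox RNA was several times more abundant in stroma than in epithelium. All members together summed to 46.6 (44.4 to 48.9) and 50.6 (49.3 to 52.0) CPM in basal cells, 30.8 and 35.0 CPM in luminal progenitors, and 57.7 and 54.3 CPM in hormone-sensing cells. Fibroblasts held 315 (302 to 328) and 288 (276 to 300) CPM, mural cells 412 and 392 CPM, and endothelial cells 366 and 499 CPM. The 3 stromal sums lay above the 3 epithelial sums in both libraries. The log2 ratio of mural cells over fibroblasts was 0.39 (0.20 to 0.57) and 0.44 (0.24 to 0.64), and that of endothelial cells over fibroblasts 0.22 (0.11 to 0.32) and 0.79 (0.66 to 0.92).

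The make-up of the Hox RNA differed more than its sum. In basal cells the Hoxb genes gave 87.3% and 94.2% of Hox UMIs. In fibroblasts the Hoxc genes led with 57.7% and 48.4%. Endothelial cells held Hoxb, Hoxa and Hoxd RNA, at 51.4% and 49.4%, 23.9% and 27.9%, and 24% and 22.3%, with Hoxc at 0.707% and 0.341%. Mural cells held 42.2% and 33.9% Hoxc and 33.8% and 40.4% Hoxb.

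**Figure D1:**
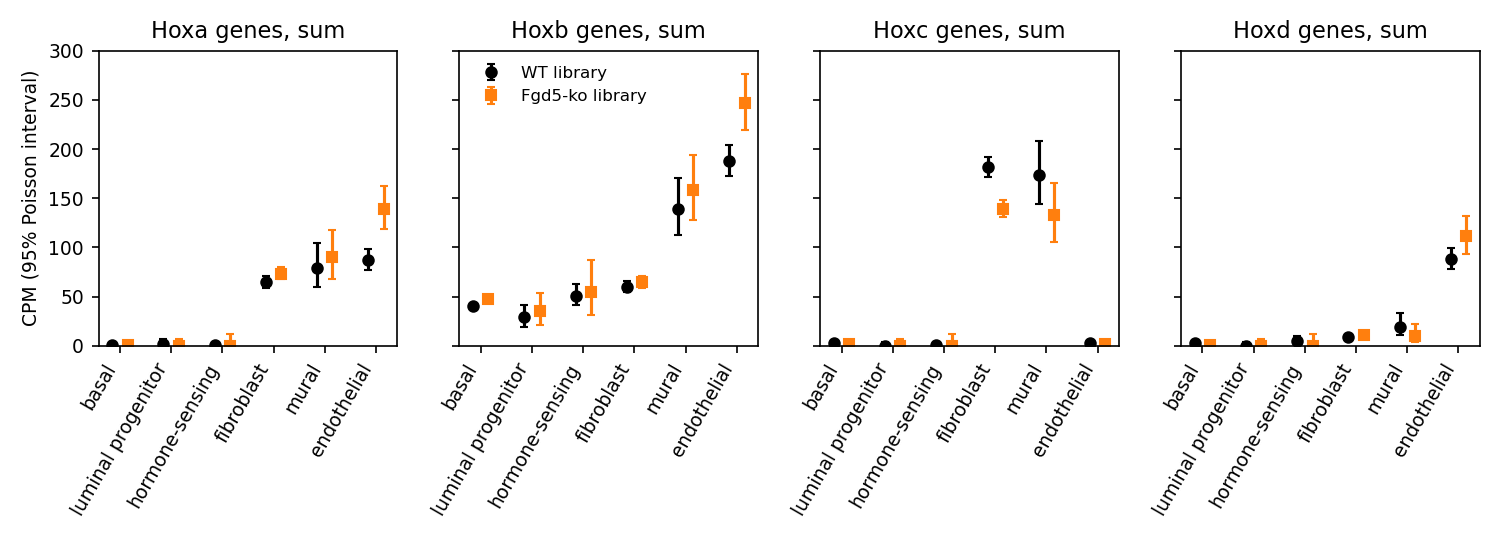
Summed level of the Hoxa, Hoxb, Hoxc and Hoxd genes (CPM, vertical axis) in the 6 cell classes, with circles for the library labelled WT, squares for the library labelled Fgd5-ko and bars for 95% Poisson intervals. Hoxc sums are 182 and 139 CPM in fibroblasts against 2.59 and 1.70 CPM in endothelial cells, and Hoxd sums are 87.9 and 111 CPM in endothelial cells against 8.52 and 10.8 CPM in fibroblasts.

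Of the 39 members, 24 had at least 20 UMIs over both libraries in at least 1 class and are described by name. A further 10 had 1 to 16 UMIs in their highest class, among them Hoxa2, Hoxa4, Hoxc13 and Hoxd4. The other 5, Hoxa13, Hoxb13, Hoxc12, Hoxd1 and Hoxd12, had 0 UMIs in the 6 classes. Hoxa13, Hoxb13, Hoxc12 and Hoxd12 belong to the tail-most paralogue groups, whose members pattern the distal limb and the genital and hind regions. In basal cells, 0 UMIs of a gene allow up to 0.0840 and 0.0290 CPM, and in mural cells up to 4.50 and 5.11 CPM. At 20 UMIs or more, the classes held 15 (basal), 2 (luminal progenitor), 2 (hormone-sensing), 19 (fibroblast), 10 (mural) and 15 (endothelial) members, where 20 UMIs are a lower CPM in a class with more UMIs. Fibroblasts and endothelial cells shared 11, which is 57.9% of the fibroblast members and 73.3% of the endothelial ones. The same overlap over all genes was not counted, so these shares only describe the members.

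**Figure D2:**
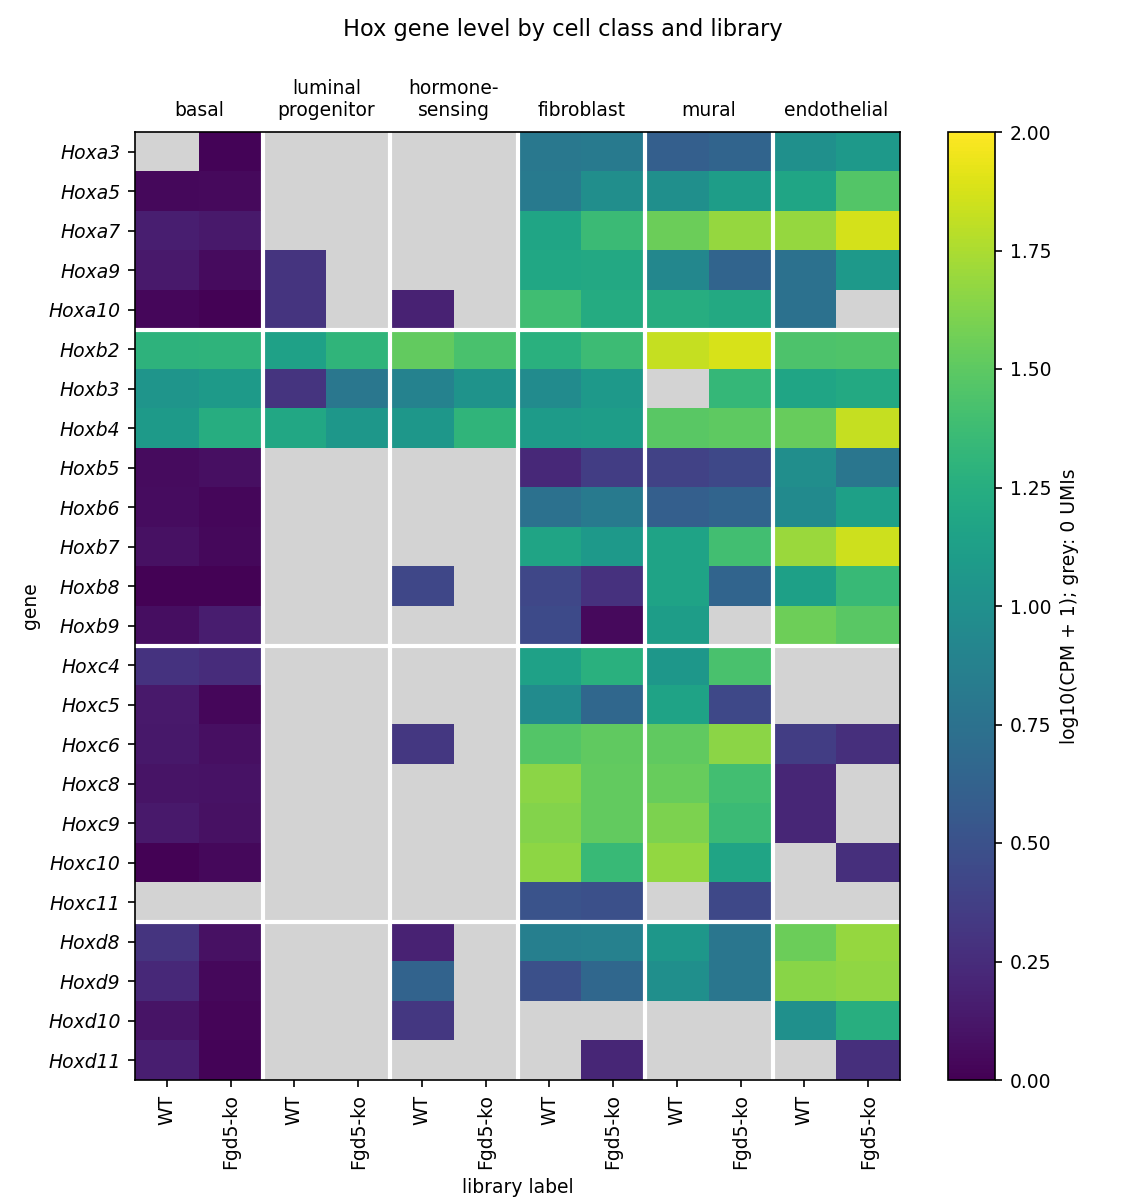
Level of the 24 named Hox genes (rows) in each cell class and library (columns), coloured by log10(CPM + 1), with grey for 0 UMIs. Hoxb2, Hoxb3 and Hoxb4 form a band through the classes, broken where Hoxb3 has 0 UMIs in mural cells of the library labelled WT, the Hoxc rows light up in fibroblasts and mural cells, and Hoxd8, Hoxd9 and Hoxd10 in endothelial cells.

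Hoxb2, Hoxb3 and Hoxb4, neighbours at the low-numbered end of the Hoxb cluster, made up 85.6% and 92.4% of basal Hox UMIs. Hoxb2, best known for patterning the hindbrain, had 665 and 1955 UMIs in basal cells, or 18.6 (17.2 to 20.1) and 18.9 (18.1 to 19.8) CPM. Both libraries gave the same level within counting error. Hoxb3 stood at 9.97 (8.96 to 11.1) and 11.3 (10.7 to 12) CPM. Hoxb4, known for expanding blood stem cells when raised, stood at 11.3 (10.3 to 12.5) and 16.6 (15.8 to 17.4) CPM, higher in the library labelled Fgd5-ko with intervals that do not overlap.

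Fibroblasts held these 3 genes at much the same level as basal cells. Hoxb2 stood at 17.6 (14.7 to 21.0) and 22.5 (19.3 to 26.1) CPM in fibroblasts, Hoxb3 at 8.24 (6.27 to 10.6) and 10.9 (8.73 to 13.5) CPM, and Hoxb4 at 11.6 (9.23 to 14.4) and 12 (9.66 to 14.7) CPM. The log2 ratio of the 3 together, fibroblast over basal, was -0.09 (-0.29 to 0.10) and -0.04 (-0.20 to 0.11). A fit across all genes of the class sums, edgeR's quasi-likelihood test with library as a term and Benjamini-Hochberg adjustment over all genes tested, called none of the 3 (log2 0.00 ± 0.21, -0.24 ± 0.23 and -0.31 ± 0.20, SE; adjusted p = 0.994, 0.411 and 0.232). A p from these fits sets a class difference against how much that difference varied between the 2 libraries, with 1 sum for each class and library. The fit shares this spread across genes. In mural and hormone-sensing cells over basal cells it came from all genes together rather than from each gene. The 2 libraries carry different genotype labels, so they are not replicates of 1 condition.

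Set against their own fibroblast level, fibroblast markers other than Pdgfrl were far lower in basal cells than these genes. In CPM, Dcn (158 and 224) and Pdgfrl (49.0 and 74.8) stood above them. Basal cells held Col1a1, the fibroblast collagen chain, at 0.105% and 0.133% of its fibroblast level, Col3a1 at 0.162% and 0.0708%, Pdgfra at 0.908% and 0.663% and Dcn at 2.08% and 2.13%. Hoxb2 in basal cells was at 106% and 83.9% of its fibroblast level, Hoxb3 at 121% and 103%, and Hoxb4 at 97.9% and 139%. Of the 8 fibroblast markers, Pdgfrl alone stood near or above its fibroblast level, at 270% and 98.7%. The class that serves as background took its name from B cell markers (58 and 13 cells). It held Hoxb2, Hoxb3 and Hoxb4 at 29.3 (13.4 to 55.5) and 36.7 (13.5 to 79.9) CPM, from 9 and 6 UMIs. Its B cell markers summed to 15853 and 1229 CPM, its myeloid markers to 2288 and 673 and its T and NK markers to 754 and 648. Basal markers summed to 16809 and 15347 CPM there, so the class is mixed. It also held the basal keratins Krt5 and Krt14 at 51.9% and 58.5% of the basal level, so it is no class free of basal RNA. Schwann-like cells, a further background chosen after the data were seen, held the 3 genes at 8.01 (0.203 to 44.6) and 0 CPM (1 and 0 UMIs), with keratins at 9.73% and 6.12% of the basal level.

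Luminal cells showed the same 3 genes and few others. In luminal progenitors Hoxb2 stood at 12.9 (6.87 to 22.1) and 19.3 (9.62 to 34.5) CPM and Hoxb4 at 14.9 (8.34 to 24.6) and 10.5 (3.86 to 22.9) CPM. Hoxb3 stood at 0.993 and 5.25 CPM there, below basal cells in both libraries though with overlapping intervals in the second, and was the 1 member called among 4 tested (log2 -2.13 ± 0.71, SE, adjusted p = 0.0453 by edgeR), where 10.0% of all genes tested were called lower and 6.87% higher. DESeq2 did not call it, nor did the fit without library, at log2 ratios of -2.11 and -2.13 (adjusted p = 0.275 and 0.129). In hormone-sensing cells Hoxb2 stood at 32.2 (24.4 to 41.6) and 25.6 (11.0 to 50.4) CPM, Hoxb3 at 6.66 and 9.59 CPM and Hoxb4 at 10.5 and 19.2 CPM. Against basal cells edgeR called 0 of 6 members tested, where 9.33% of all genes were called higher and 12.9% lower, and 0 had an unadjusted p under 0.05 or a call by DESeq2. The remaining 36 members together had 2 and 0 UMIs in luminal progenitors and 15 and 0 in hormone-sensing cells, of which Hoxd genes gave 9. Krt5 and Krt14 stood at 12.4% and 13.6% of the basal level in luminal progenitors and at 4.73% and 0.328% in hormone-sensing cells, and the part of carried-over basal RNA in their Hoxb2 to Hoxb4 values was not tested.

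Fibroblasts held members of the other clusters that basal cells all but lacked. Of 23 members tested, edgeR called 19 higher in fibroblasts than in basal cells and 0 lower, where 24.4% of all genes tested were called higher and 23.0% lower. At an unadjusted p under 0.05, 0 were lower too. DESeq2 tested 27 members and called 21 higher and 0 lower, but not Hoxb5 (adjusted p = 0.174). Of all 15845 genes DESeq2 tested, 2735 were called higher and 2494 lower. By edgeR, the median log2 ratio of the tested members was 5.40 against -0.02 over all 14106 genes tested. Members that pass the filter on low counts through the class where they are high must differ, so these counts describe and do not support. The 4 that edgeR did not call were Hoxb2, Hoxb3, Hoxb4 and Hoxd11.

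Among the Hoxc genes, which pattern the trunk and hind region, the highest levels were those of Hoxc6 to Hoxc10, with a steep drop at Hoxc11. Hoxc4 stood at 13 (10.5 to 15.9) and 17.4 (14.6 to 20.7) CPM in fibroblasts and Hoxc5 at 8.24 and 3.65 CPM. Hoxc6, known from mammary development, stood at 28.2 (24.5 to 32.4) and 31.3 (27.4 to 35.5) CPM. Hoxc8, a regulator of trunk identity, stood at 44.3 (39.5 to 49.4) and 31.9 (28.0 to 36.2) CPM and Hoxc9 at 41.3 (36.8 to 46.3) and 31.9 (28.0 to 36.2) CPM. Hoxc10, a hindlimb and lumbar gene that also marks fat and skin of the lower body, stood at 44.4 (39.7 to 49.6) and 21.2 (18.1 to 24.7) CPM. Hoxc8, Hoxc9 and Hoxc10 did not differ beyond their intervals in the library labelled WT, whereas in the library labelled Fgd5-ko Hoxc10 lay below the others. Past Hoxc10 the level fell to 2.23 (1.28 to 3.63) and 2.08 (1.19 to 3.38) CPM at Hoxc11, and Hoxc12 and Hoxc13 had 0 UMIs in fibroblasts.

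In basal cells the Hoxc genes summed to 2.33 and 1.71 CPM, a log2 difference from fibroblasts of 6.29 (5.97 to 6.63) and 6.35 (6.12 to 6.59). Hoxc8 rose by 7.03 ± 0.26 on the log2 scale from basal cells to fibroblasts (adjusted p = 1.24e-06, edgeR), and Hoxc10 by 8.37 ± 0.41 (SE, adjusted p = 4.00e-06). Hoxc4 had the most basal UMIs of the Hoxc genes, 34 and 83, or 0.953 and 0.802 CPM. That is 7.33% and 4.60% of its fibroblast level, above the shares of Col1a1 and Dcn given before. Basal Hoxc10, at 0.0631% and 0.455%, lay below the shares of Pdgfra and Dcn. Against Col1a1 and Col3a1 it lay lower in the library labelled WT (0.105% and 0.162%). In the library labelled Fgd5-ko it lay above both (0.133% and 0.0708%).

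The Hoxa genes of fibroblasts were mainly Hoxa10, Hoxa9 and Hoxa7. Hoxa10, known for its work in the uterus and blood, stood at 23.3 (19.9 to 27.1) and 16 (13.3 to 19.1) CPM, Hoxa9, a blood and leukaemia gene, at 14.5 (11.9 to 17.6) and 15.2 (12.6 to 18.3) CPM, and Hoxa7 at 14.0 (11.4 to 17.0) and 22.0 (18.8 to 25.6) CPM. Hoxa5, needed for lung and for mammary timing in mice, stood at 5.59 and 8.72 CPM and Hoxa3, a gene of thymus and parathyroid formation, at 5.31 and 5.60 CPM. In basal cells these 5 summed with the other Hoxa genes to 1.06 and 0.754 CPM. Past the low-numbered Hoxb genes, fibroblasts held Hoxb7 at 13.7 (11.1 to 16.7) and 10.9 (8.73 to 13.5) CPM and Hoxb6 at 4.61 and 5.73 CPM. Hoxb5, Hoxb8 and Hoxb9 stood between 0.130 and 1.82 CPM. Hoxd8 stood at 6.28 and 6.51 CPM and Hoxd9 at 2.09 and 3.65 CPM in fibroblasts, with Hoxd10 at 0 UMIs in both libraries.

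**Figure D3:**
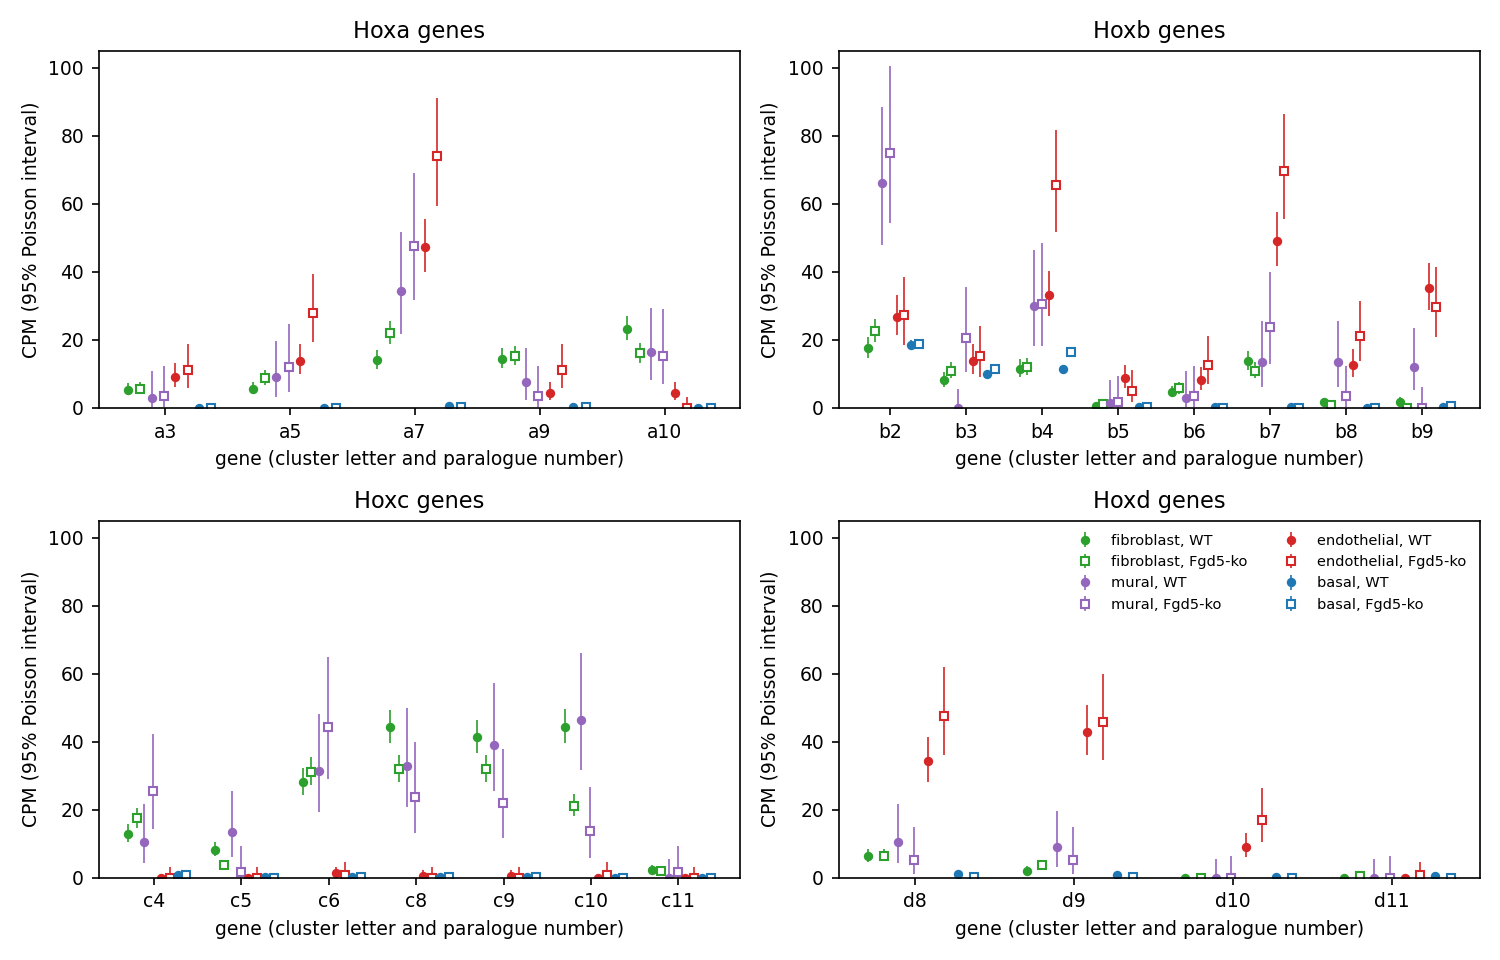
Level (CPM, vertical axis, with 95% Poisson intervals) of the 24 Hox genes described by name, in order of paralogue number along the 4 clusters, with filled circles for the library labelled WT and open squares for the library labelled Fgd5-ko, in fibroblasts (green), mural cells (purple), endothelial cells (red) and basal cells (blue). Hoxc levels in fibroblasts run from 8.24 to 44.4 CPM between Hoxc4 and Hoxc10 in the library labelled WT and drop to 2.23 CPM at Hoxc11, and the Hoxd points of endothelial cells stand at Hoxd8, Hoxd9 and Hoxd10.

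Endothelial cells carried another set: Hoxa7, Hoxb4, Hoxb7 to Hoxb9 and Hoxd8 to Hoxd10, with next to no Hoxc RNA. Clusters led by Hbb-bs (455 and 100 barcodes), Car4 (172 and 87) and Ccl20 (125 and 54) also scored highest as endothelial. They stayed unnamed because their top genes held more markers of another class, and are not in this class. Clusters led by Ednrb (193 and 60) and Flt1 (121 and 46) scored highest as endothelial by a margin under 1 and are left out too. Hoxd8, a gene linked to lymphatic and blood vessel growth, stood at 34.3 (28.1 to 41.4) and 47.6 (36.0 to 61.8) CPM in endothelial cells and Hoxd9 at 43.0 (36.0 to 50.9) and 45.9 (34.5 to 59.9) CPM. Hoxd10, known to keep vessels quiescent, stood at 9.05 (6.01 to 13.1) and 17.0 (10.4 to 26.3) CPM. The endothelial intervals of Hoxd8, Hoxd9 and Hoxd10 lay above those of fibroblasts in both libraries. Against the 0 UMIs of fibroblasts, with a floor of 3 counts per library, Hoxd10 was at least 21.6-fold and 43.5-fold higher. The Hoxd genes together differed by a log2 ratio of 3.37 (2.96 to 3.79) and 3.37 (2.96 to 3.78), endothelial over fibroblast.

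Hoxa7, a central paralogue, stood at 47.2 (39.8 to 55.5) and 74.0 (59.2 to 91.2) CPM in endothelial cells. Hoxb7, a gene raised in breast and other cancers, stood at 49.1 (41.6 to 57.6) and 69.7 (55.4 to 86.5) CPM, Hoxb9 at 35.2 (28.9 to 42.5) and 29.8 (20.7 to 41.4) CPM and Hoxb8 at 12.6 (8.96 to 17.2) and 21.3 (13.8 to 31.4) CPM. In fibroblasts Hoxb9 had 13 UMIs and 1 UMI (1.82 and 0.130 CPM). Hoxb4 stood at 33.3 (27.2 to 40.4) and 65.5 (51.7 to 81.8) CPM, above basal cells and fibroblasts in both libraries. Hoxa5 stood at 13.9 and 28.1 CPM, Hoxa3 at 9.05 and 11.1 CPM, Hoxb6 at 8.08 and 12.8 CPM and Hoxb5 at 8.73 and 5.10 CPM. The Hoxc genes summed to 2.59 (1.12 to 5.10) and 1.70 (0.206 to 6.14) CPM from 8 and 2 UMIs, a log2 ratio over fibroblasts of -6.13 (-7.35 to -5.15) and -6.36 (-9.41 to -4.50).

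Of 25 members tested between these 2 classes, edgeR called 14 higher and 9 lower in endothelial cells, where 17.1% of all genes tested were called higher and 21.2% lower. The median of the tested members was 1.13 against -0.08 over all 12031 genes. Members at or near 0 in 1 of these classes pass the filter on low counts through the other and must differ, so these counts describe. Called higher were Hoxa2, Hoxa3, Hoxa4, Hoxa5, Hoxa7, Hoxb4, Hoxb5, Hoxb6, Hoxb7, Hoxb8, Hoxb9, Hoxd8, Hoxd9 and Hoxd10. Called lower were Hoxa9, Hoxa10 and the 7 Hoxc genes from Hoxc4 to Hoxc11. Hoxb9 rose by 5.25 ± 0.44 (SE, adjusted p = 9.58e-11), Hoxd9 by 4.13 ± 0.31 (adjusted p = 1.58e-11) and Hoxb7 by 2.40 ± 0.26 (adjusted p = 1.52e-08) on the log2 scale. Hoxc8 fell by 6.20 ± 0.54 (adjusted p = 2.25e-10) and Hoxa10 fell by 2.61 ± 0.45 (adjusted p = 3.11e-05). DESeq2 called 8 higher and 6 lower: it did not call Hoxa2, Hoxa3, Hoxa4, Hoxa5, Hoxb5 and Hoxb6, nor Hoxa9, Hoxc5 and Hoxc11. Of all 12857 genes DESeq2 tested, 1104 were called higher and 1062 lower. Hoxc4 and Hoxc5 had 0 endothelial UMIs, so fibroblasts were at least 13.4-fold and 6.84-fold higher for Hoxc4 and at least 8.50-fold and 1.43-fold higher for Hoxc5.

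Against basal cells, edgeR called 16 of 19 tested members higher in endothelial cells and 0 lower, where 21.3% of all genes were called higher and 22.2% lower. At an unadjusted p under 0.05, 0 were lower too. DESeq2 tested 24 members and called 17 higher and 0 lower, Hoxb2 not among them. Of all 14345 genes DESeq2 tested, 2094 were called higher and 1959 lower. Members at or near 0 in basal cells pass edgeR's filter on low counts through endothelial cells and must differ, so these counts are descriptions. By edgeR, the 3 not called were Hoxb3, Hoxc4 and Hoxc6. Hoxb2 was called with the smallest ratio, log2 0.62 ± 0.21 (adjusted p = 0.0302), and coarser clustering at Leiden resolution 0.5 turned its sign to -0.08. The call was also lost with DESeq2 (log2 0.55, adjusted p = 0.352), with no filter on low counts (0.54, adjusted p = 0.0685), without library as a term (0.63, adjusted p = 0.116) and at Leiden resolution 2 (0.36, adjusted p = 0.180). Hoxb4 rose by 1.86 ± 0.20 (SE, adjusted p = 1.22e-05). Krt5 and Krt14 stood in endothelial cells at 3.89% and 1.49% of the basal level.

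Mural cells resembled fibroblasts in their Hoxc RNA. By edgeR they stood above fibroblasts in Hoxb2, Hoxb4, Hoxb8 and Hoxa7, of which DESeq2 did not call Hoxb4, Hoxb8 and Hoxa7. The Hoxc genes summed to 174 (144 to 209) and 133 (105.003 to 166) CPM in mural cells, against 182 and 139 CPM in fibroblasts, a log2 ratio of -0.06 (-0.35 to 0.21) and -0.07 (-0.42 to 0.26). Hoxb2 had its highest level in mural cells, 66.0 (48.0 to 88.6) and 74.9 (54.4 to 101) CPM, above the intervals of the other 5 classes in both libraries. Hoxb4 stood at 30 (18.3 to 46.3) and 30.7 (18.2 to 48.4) CPM and Hoxa7 at 34.5 (21.9 to 51.8) and 47.7 (31.7 to 68.9) CPM. Hoxb3, the gene between Hoxb2 and Hoxb4, had 0 and 12 UMIs (0, with up to 4.50 allowed, and 20.4 CPM).

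Of 20 members tested, edgeR called 4 higher in mural cells than in fibroblasts and 1 lower, where 13% of all genes were called higher and 16.4% lower. Hoxb2 rose by 1.78 ± 0.27 (adjusted p = 8.40e-06), Hoxb4 by 1.32 ± 0.35 (adjusted p = 0.00453), Hoxa7 by 1.16 ± 0.32 (adjusted p = 0.00650) and Hoxb8 by 2.62 ± 0.78 (SE, adjusted p = 0.0112), and Hoxa9 fell by 1.45 ± 0.54 (adjusted p = 0.0430). DESeq2 called 1 higher and 0 lower, and did not call Hoxb4, Hoxa7 or Hoxb8 (adjusted p = 0.217, 0.207 and 0.282). The coarser clustering gave 1 and 2, and lost the edgeR calls of Hoxb4 and Hoxa7 (adjusted p = 0.0983 and 0.363). Of all 12303 genes DESeq2 tested, 862 were called higher and 789 lower. Against basal cells, edgeR called 17 of 19 higher and 0 lower, where 15.2% of all genes were called higher and 17.7% lower. At an unadjusted p under 0.05, 0 were lower too. DESeq2 tested 24 members and called 17 higher and 0 lower, but not Hoxb4 (adjusted p = 0.287) or Hoxb6 (adjusted p = 0.0512). Of all 14268 genes DESeq2 tested, 1417 were called higher and 1057 lower. The filter on low counts acts here too for members at or near 0 in basal cells, so these counts are descriptions. By edgeR, Hoxb3 and Hoxb5 were not called. Mural cells held endothelial markers at 1125 and 717 CPM summed, against 5768 and 6431 CPM in endothelial cells, with 0 of the 10 markers at 0. Their Hoxd genes summed to 19.5 (10.4 to 33.3) and 10.2 (3.75 to 22.2) CPM, and the part of endothelial RNA in that sum was not tested.

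Within the stromal classes the Hox sum varied between clusters of cells. Fibroblast clusters with at least 50 barcodes in a library ran from 205 to 395 CPM (5 clusters, library labelled WT) and from 164 to 361 CPM (4 clusters, library labelled Fgd5-ko). The cluster led by Lum, Col1a2 and Col1a1 was lowest in both, with Hoxc sums of 109 and 65.5 CPM, against 240 CPM in the cluster led by Angptl1, Inmt and Smoc2 in the library labelled WT and 183 CPM in the cluster led by Mrgprg, Ptx3 and Has1 in the library labelled Fgd5-ko. Clusters made up the classes unevenly: the one led by Pi16 held 398 and 3 fibroblasts and the one led by Mrgprg 0 and 204. Endothelial clusters in the library labelled WT stood at 564 CPM (led by Gkn3, an arterial gene), 552 CPM (led by Sele, Selp and Vwf) and 187 CPM (led by Glycam1, a gene of high endothelial venules). The Glycam1 cluster held 52.3% and 51.7% of the class's UMIs in 164 and 20 cells. Its Hoxd genes summed to 26.6 CPM, against 124 and 153 CPM in the clusters led by Gkn3 and Sele.

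Among the basal clusters, 1 of 103 and 38 cells, led by BC100530, Fgfbp1 and Aldh3a1, stood apart in its Hoxd RNA. Its Hoxd genes summed to 89.2 (71.0 to 111) and 38.4 (24.6 to 57.1) CPM, against 0.230 (0.0993 to 0.453) and 0.224 (0.142 to 0.336) CPM in the rest of the basal class. That cluster, 1.62% and 0.630% of basal cells, held 91.1% and 51.1% of basal Hoxd UMIs. In the library labelled WT it held 33 of 36 UMIs of Hoxd8, 21 of 25 of Hoxd9, 9 of 10 of Hoxd10 and 17 of 17 of Hoxd11, a paralogue of forearm and kidney formation. In the library labelled Fgd5-ko it held 10 of 24, 4 of 11, 5 of 7 and 4 of 4.

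Hoxa7 stood at 13.1 and 25.6 CPM and Hoxa9 at 12 and 17.6 CPM in the same cluster, against 0.0486 to 0.214 CPM in other basal cells. Hoxb2, Hoxb3 and Hoxb4 together stood lower, at 20.7 (12.4 to 32.3) and 14.4 (6.58 to 27.3) CPM against 40.5 and 47.0 CPM. Krt14 was at the basal level (3118 and 2778 CPM, against 2631 and 2272), whereas Acta2, the contractile actin, was lower at 1288 and 2121 CPM against 10496 and 6942. Endothelial Cdh5 had 8 and 0 UMIs there, or 8.70 (3.76 to 17.1) and 0 CPM, against 1.21 and 0.661 CPM in other basal cells. Col1a1 had 4 and 1 UMIs, or 4.35 and 1.60 CPM, against 3.48 and 2.82 CPM. The cluster was picked out after its values were seen, so these are descriptions. The other basal clusters ran from 30.8 to 56.5 CPM of summed Hox RNA (6 clusters) and from 22.7 to 70.1 CPM (9 clusters). The highest was led by the mitotic genes Cenpf, Cenpa and Cenpe, in the library labelled Fgd5-ko. Nearly all basal clusters came from 1 library, and their differences and those between libraries cannot be told apart.

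**Figure D4:**
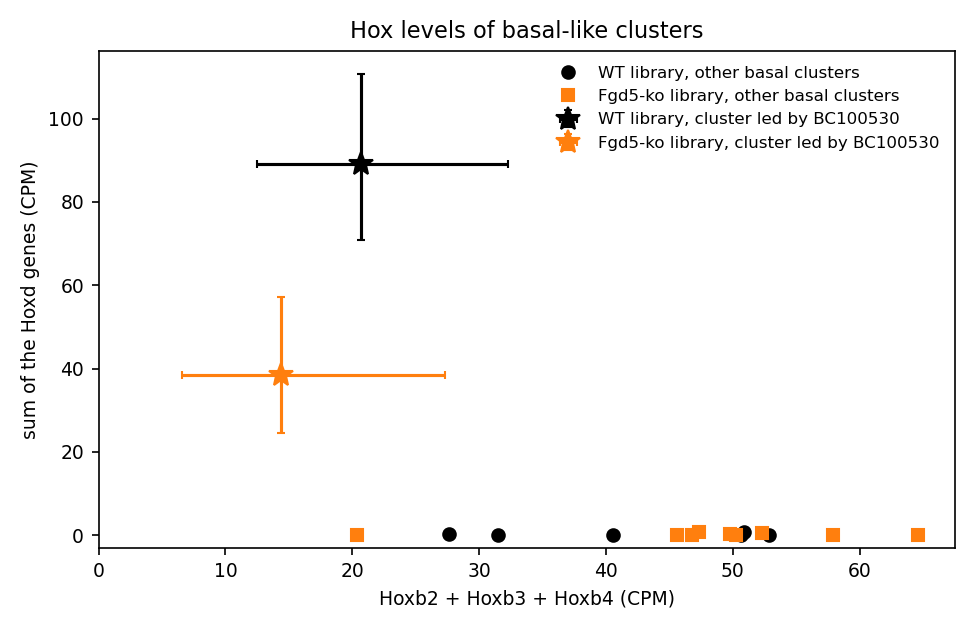
Sum of the Hoxd genes against the sum of Hoxb2, Hoxb3 and Hoxb4 (both CPM) in each basal cluster with at least 50 barcodes in a library (circles for the library labelled WT, squares for Fgd5-ko) and in the cluster led by BC100530 (stars, with 95% Poisson intervals). The stars stand at 89.2 and 38.4 CPM of Hoxd, and the other clusters at 0 to 0.748 CPM.

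Counted by cells, each thinned to 2000 UMIs so that depth is equal, 8.72% (8.03 to 9.44) and 9.57% (8.84 to 10.3) of basal cells had a Hox UMI. The shares were 47.1% and 41.4% of fibroblasts, 55.2% and 48.1% of mural cells and 54.8% and 65.2% of endothelial cells, and 8% and 4.55% of luminal progenitors and 7.96% and 10.0% of hormone-sensing cells. Left out as too shallow were 61 and 0 basal cells, 37 and 8 fibroblasts, 21 and 3 mural cells and 135 and 0 endothelial cells, and 21 and 1 luminal progenitors. Without thinning the shares were 21.0% and 49.8% in basal cells and 84.1% and 89.5% in fibroblasts, whose cells held 4947 and 15723 and 6600 and 12767 UMIs at the median. The background class had 5.88% (1.23 to 16.2) and 0% (0 of 13 cells, which allows up to 23.1%), with 4420 and 7737 UMIs in its median cell. The basal interval lies within that of the background, so no difference from the background was detectable for basal and luminal shares, in a class that itself carries basal RNA. A Hoxc UMI was in 31.5% (28.6 to 34.4) and 24.2% (20.8 to 28.0) of thinned fibroblasts and in 0.579% and 1.12% of endothelial cells. A Hoxd UMI was in 1.18% and 1.77% of fibroblasts and in 18.0% (14.7 to 21.5) and 24.7% (16.2 to 35.0) of endothelial cells. Hoxc and Hoxd shares thus ran in opposite order in these classes.

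**Figure D5:**
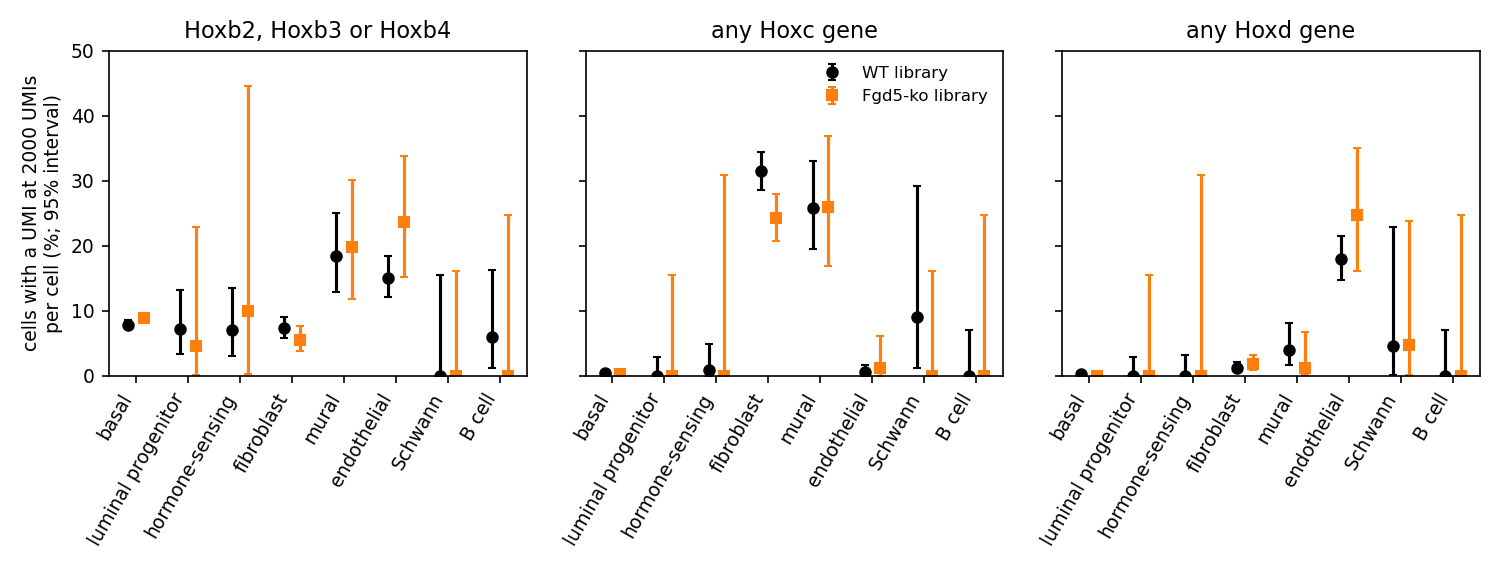
Share of cells with a UMI of Hoxb2, Hoxb3 or Hoxb4 (left), of any Hoxc gene (middle) and of any Hoxd gene (right) after each cell was thinned to 2000 UMIs (percent, with 95% Clopper-Pearson intervals), by class and library. Schwann-like cells and the mixed class named B cell serve as background. Hoxc shares reach 31.5% in fibroblasts against 0.579% in endothelial cells, and Hoxd shares 18.0% in endothelial cells against 1.18% in fibroblasts, in the library labelled WT.

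Between libraries there was 1 sample for each label, so no test was made and ratios carry counting error only. In basal cells 15 members had at least 20 UMIs, of which 1 (Hoxb9) was at least 1.5-fold higher in the library labelled Fgd5-ko and 7 (Hoxa9, Hoxc5, Hoxc6, Hoxc9, Hoxd8, Hoxd9 and Hoxd11) at least 1.5-fold lower, where 26.9% of all genes with as many UMIs were higher and 10.5% lower. Hoxd8 fell by 2.12 on the log2 scale, Hoxd9 by 2.72 and Hoxd11 by 3.62, all genes whose basal UMIs came largely from the BC100530 cluster in the library labelled WT. Without that cluster, left out after the data were seen, 10 members were measured, with 1 (Hoxb9) higher and 1 (Hoxc9) lower. Hoxb9 had 7 and 46 UMIs, a log2 ratio of 1.18. Hoxb4 differed by 0.55 (0.39 to 0.71), Hoxb3 by 0.18 and Hoxb2 by 0.02, beside a median of 0.23 over all genes measured. TMM scaling and the median of ratios lower every basal ratio by 0.17 and 0.22, which turns the sign of Hoxb2 under both and of Hoxb3 under the latter. TMM scaling changed all genes from 4047 higher and 1581 lower to 2891 and 2167, with the Hox counts at 1 and 7. The basal cells of the 2 libraries fall in different clusters, led by Slpi, Chil1 and Tagln in the library labelled WT and by Slpi with Ankrd1, Bdnf and 1600014C10Rik in the other, and this and the label cannot be told apart.

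In fibroblasts 19 members were measured, 3 (Hoxa5, Hoxa7 and Hoxd9) at least 1.5-fold higher and 2 (Hoxc5 and Hoxc10) at least 1.5-fold lower in the library labelled Fgd5-ko, where 18.0% of all genes were higher and 13.2% lower. Hoxc10 had 318 and 163 UMIs, a log2 ratio of -1.06 (-1.35 to -0.79). The cluster led by Col3a1, Lum and Mmp3, present in both libraries, held Hoxc10 at 54.2 and 19.8 CPM, and the cluster led by Angptl1 at 75.3 and 17.5 CPM. The Angptl1 cluster had 66 and 75 cells. In the cluster led by Lum, Col1a2 and Col1a1, also present in both libraries, Hoxc10 stood at 20.3 and 10.7 CPM. These values are given without intervals, and the part of cluster make-up in the library ratio was not tested. Hoxa7 had a ratio of 0.66 and stood at 9.27 and 15.9 CPM in the cluster led by Col3a1. In endothelial cells 15 members were measured, 7 (Hoxa5, Hoxa7, Hoxa9, Hoxb4, Hoxb6, Hoxb8 and Hoxd10) higher and 1 (Hoxb5) lower, where 22.0% of all genes were higher and 12.8% lower. Hoxb4 differed by 0.98 and Hoxa5 by 1.01 on the log2 scale, beside a median of 0.13 over all genes measured. TMM scaling lowered endothelial ratios by 0.16, to 5 higher and 1 lower, and changed all genes from 2063 higher and 1201 lower to 1415 and 1660. The library labelled Fgd5-ko has 89 endothelial cells, and the clusters take unlike shares of the class in the 2 libraries.

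Among the TALE cofactors of Hox proteins, Meis2 stood at 1.18 and 0.155 CPM in basal cells, 58.7 and 49.5 CPM in fibroblasts and 64.5 and 71.5 CPM in mural cells. It rose by 6.72 ± 0.61 (SE, adjusted p = 9.03e-05, edgeR) from basal cells to fibroblasts. Of 9 cofactors tested there, 4 (Meis1, Meis2, Meis3 and Pbx4) were called higher and 1 (Pbx3) lower, with a median of 0.29, where 24.4% of all genes were called higher and 23.0% lower. Between endothelial cells and fibroblasts 6 of 9 were called, all lower in endothelial cells, where 17.1% of all genes were called higher and 21.2% lower. In both comparisons, cofactors at or near 0 in 1 class pass the filter on low counts through the other and must differ. Both counts are therefore descriptions. Meis1 stood at 0.646 and 0.850 CPM in endothelial cells against 22.9 and 20.2 CPM in fibroblasts.

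Of 16 regulators of Hox chromatin, edgeR called 3 higher and 2 lower in fibroblasts than in basal cells, with a median of 0.02. These counts are no larger a share than the 24.4% and 23.0% of all genes called higher and lower. Ezh2, the methyltransferase of the Polycomb complex, fell by 1.05 ± 0.18 (SE, adjusted p = 0.00240) to 10.8 and 25.9 CPM from 19.4 and 54.5 CPM. It stood at 4.85 and 8.50 CPM in endothelial cells, a log2 ratio of -2.22 over basal cells (adjusted p = 3.11e-05). Kdm6b, a demethylase of the Polycomb mark, stood at 64.9 and 89.9 CPM in basal cells and 96.9 and 167 CPM in fibroblasts, and rose by 0.65 ± 0.20 (adjusted p = 0.0297). Kmt2a, the trithorax methyltransferase, stood at 61.9 and 118 CPM in basal cells and 63.3 and 104.96 CPM in fibroblasts and Suz12, a Polycomb subunit, at 28.9 and 52.1 and at 28.8 and 34.4 CPM. Neither was called between these 2 classes. Against basal cells, endothelial cells had 6 of 16 called higher and 2 lower, where 21.3% of all genes were called higher and 22.2% lower.

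The noncoding RNAs of the Hox clusters, of which 7 are in the files, followed their neighbours in part. Hoxb3os, antisense at Hoxb2 and Hoxb3, stood at 28.2 and 24.4 CPM in basal cells, more than Hoxb2 itself, at 8.38 and 6.38 CPM in fibroblasts and at 43.5 and 68.1 CPM in mural cells. It fell by 1.93 ± 0.20 (SE, adjusted p = 0.000197) from basal cells to fibroblasts, where Hoxb2, Hoxb3 and Hoxb4 were not called. Hotairm1, a noncoding RNA of the Hoxa cluster, stood at 20.8 and 6.25 CPM in fibroblasts, 99.0 and 42.6 CPM in mural cells, 62.7 and 20.4 CPM in endothelial cells and 0.336 and 0.0870 CPM in basal cells. Its level was lower in the library labelled Fgd5-ko in each of these 4 classes. Hoxd3os1 stood at 31.4 and 11.1 CPM in endothelial cells and 3.21 and 2.34 CPM in fibroblasts, and Hoxaas3 at 8.08 and 10.2 CPM and 0.978 and 0.781 CPM. Of 4 tested between fibroblasts and basal cells, 3 were called higher and 1 lower, where 24.4% of all genes were called higher and 23.0% lower. Those at or near 0 in basal cells pass the filter on low counts through fibroblasts and must differ, so this count is a description. Hotair and Hottip, from the high-numbered ends of Hoxc and Hoxa, had 0 UMIs in the 6 classes.

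Of 19 other regulators of position, 13 were tested between fibroblasts and basal cells and 10 were called, all higher in fibroblasts, with a median log2 ratio of 8.04, where 24.4% of all genes were called higher and 23.0% lower. Members at or near 0 in basal cells pass the filter on low counts through fibroblasts and must differ, so this count is a description. Shox2, a limb regulator, stood at 41.2 and 42.8 CPM in fibroblasts, 59.99 and 81.7 CPM in mural cells and 0.112 and 0.174 CPM in basal cells. Tbx2 had its highest level in mural cells, 118 and 145 CPM, where it rose by 3.55 ± 0.26 over fibroblasts (SE, adjusted p = 1.59e-11). Tbx3, whose loss in humans and mice impairs mammary development, led in hormone-sensing cells at 94.9 and 109 CPM, a rise of 1.83 ± 0.32 over basal cells (adjusted p = 1.26e-07), and Msx2, a homeobox gene of skin appendages, stood there at 61.6 and 38.3 CPM against 0.756 and 0.377 CPM in basal cells. Between endothelial cells and fibroblasts 9 of 13 were called, all lower in endothelial cells, where 17.1% of all genes were called higher and 21.2% lower. The same filter applies to those at or near 0 in endothelial cells. En1 (49.6 and 27.5 CPM in fibroblasts, 0.323 and 0 in endothelial cells), Emx2 (32.5 and 40.1, 0.323 and 0) and Tbx15 (27.1 and 32.2, 0 and 0) were among the 9. These 3 were chosen for naming after their values were seen.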

How the data were processed

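The deposited matrices hold UMI counts for each gene and cell barcode, written by Cell Ranger (matrix software version 3.1.0, per the file headers). Seurat 3.0 and the build mm9 are named too, per the submitters' processing notes. A deposited table from the authors lists the cells they kept with 2 t-SNE coordinates, which are scores without a fixed range and were not used. Cells of that table (6588 and 6064) and other barcodes that passed a floor of 1000 UMIs and 500 genes and a ceiling of 15% mitochondrial counts (3490 and 1626) were clustered separately with scanpy 1.11.5 (2000 variable genes without Hox genes, 30 principal components, 15 neighbours, Leiden resolution 1). Clusters took a class name from marker lists. The scoring rule for names (a margin of 1 on the log2 scale, 3 markers detected in 10% of cells, the top 10 genes) was set after the data were seen. Doublets were not removed.

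UMIs were summed for each class and library. Class sums were compared with edgeR 4.0.16 (R 4.3.3; quasi-likelihood test, TMM, filterByExpr, library as a term, Benjamini-Hochberg adjustment over all genes tested, threshold 0.05). In simulated counts for fibroblasts against basal cells (14176 genes), 96% of 200 changed genes were recovered and 5 others called. The changed genes were drawn from those well counted in every sum, with 1 size of fold and 1 fixed spread. No other gene differed between the simulated classes. The recovery therefore does not describe Hox genes at or near 0 in a class. DESeq2 1.42.0, other filters, clusterings and cell sets were alternatives. The library term is a block: both classes of a pair come from the same library. Intervals are exact (95%), and 0 UMIs allow 3 counts per library. With 1 library for each genotype label, no test between labels was possible.

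The members and lists were chosen with earlier results of these data known. Members with at least 20 UMIs over both libraries in a class were named, as were the 2 to 4 most abundant genes of each list. Meis3, Pbx3, Pbx4, En1, Emx2, Tbx15, Hoxa2 and Hoxa4 were named after their values were seen. Haglr and Mira are not analysed here, and some genes that these rules would name are not reported here. Sequences are from RefSeq.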

Additional observations from a re-analysis of the deposited data

Results flagged for a closer look

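One cluster of 125 and 54 barcodes outside the authors' cell table, led by Ccl20, Marco and Bmp2, took no class name and entered no comparison, and its Hoxd levels lay above those of every named class. Its highest class score was endothelial. Hoxd9 stood at 125 CPM in the library labelled WT and at 113 CPM in the library labelled Fgd5-ko. Hoxd8 stood at 86.6 and 57.2 CPM and Hoxd10 at 55.7 and 53.8 CPM. In endothelial cells, the named class with the highest Hoxd level, these genes stood at 43.0 and 45.9, 34.3 and 47.6, and 9.05 and 17.0 CPM.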

How the results depend on the processing

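DESeq2 called 8 members higher in endothelial cells than in fibroblasts (14 by edgeR), 1 higher and 0 lower in mural cells than in fibroblasts (4 and 1) and 0 lower in luminal progenitors than in basal cells (1). Without library as a block, 2 were called higher and 0 lower in mural cells against fibroblasts and 0 lower in luminal progenitors, with Hoxa9 at -1.45 in the former and Hoxb3 at -2.13 in the latter. Leiden resolution 0.5 gave 1 and 2 in mural cells against fibroblasts, and turned Hoxb2, endothelial over basal, to -0.0827. Without the cluster led by BC100530, 0 members were called lower in luminal progenitors, with Hoxb3 at -2.14 (adjusted p = 0.0536). The cause was not tested. Leaving out either library kept the direction of every called member (19, 16, 17, 14, 9, 4, 1 and 1), with no test. Without the block, all genes called in fibroblasts against basal cells fell from 3439 higher and 3239 lower to 2241 and 1575, and DESeq2 called 1104 and 1062 in endothelial cells against fibroblasts, where edgeR called 2063 and 2548.

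Members detected, with cells of 4000 to 12000 UMIs, a minimum of 1 UMI and a minimum of 50, were 5, 28 and 7 in basal cells, 0, 5 and 0 in luminal progenitors, 0, 9 and 1 in hormone-sensing cells and 5, 26 and 2 in mural cells. A minimum of 1 gave 30 in fibroblasts and 27 in endothelial cells. Between libraries, cells of 4000 to 12000 UMIs left 5 members measured in basal cells, with 0 higher and 1 lower. Of all 13224 genes measured there, 3128 were higher and 1429 lower. In endothelial cells they left 10 members, with 5 higher and 0 lower, beside 2507 and 848 of 6775 genes. A minimum of 50 gave 1 lower of 7 members in basal cells, beside 1187 of 13706 genes. In endothelial cells it gave 4 higher and 0 lower of 10 members, beside 1323 and 720 of 6867 genes. The median of ratios gave 4 higher of 15 members in endothelial cells, beside 1314 of 9375 genes. Leaving out the BC100530 cluster gave 1 lower of 10 members in basal cells, with no count over all genes. Shares with a Hox UMI, thinned to 1000 UMIs and not thinned, were 4.31% and 21.0% (WT) and 4.64% and 49.8% (Fgd5-ko) in basal cells, 27.5% and 84.1% and 24.6% and 89.5% in fibroblasts, 30.8% and 69.7% and 21.4% and 82.1% in mural cells and 34.0% and 73.4% and 33.7% and 96.6% in endothelial cells. Luminal progenitors had 17.8% (WT) and 47.8% (Fgd5-ko) not thinned and 0% (Fgd5-ko) at 1000 UMIs, and hormone-sensing cells 52.2% and 70.0% not thinned and 2.65% (WT) at 1000 UMIs. For single genes under the alternatives, 946 values were counted as the same, 55 lost the call, 2 moved and 1 reversed. Not all of the 946 had a call to keep. Values from 1 library alone counted as the same by direction only. Ratios between libraries, which were not tested, counted as the same when they stayed within their counting interval. Few UMIs limit the luminal and mural classes most.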

Other observations

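Further barcodes outside the authors' cell table took no class name. Each cluster given in this paragraph had endothelial as its highest class score. A cluster led by Hbb-bs, Rbp7 and Esm1 (455 and 100 barcodes) held 440 and 407 CPM of Hox RNA, with Hoxc at 4.51 and 6.59 CPM and Hoxd at 119 and 75.1 CPM. A cluster led by Car4, Gpihbp1 and Timp4 (172 and 87 barcodes), the first 2 being capillary endothelial genes, held 469 and 514 CPM, with Hoxd at 195 and 122 CPM. Both had the low Hoxc and high Hoxd of the endothelial class. A cluster led by Ednrb, H2-M9 and Cyp26b1 (193 and 60 barcodes) held 478 and 489 CPM with Hoxc at 123 and 86.6 CPM and Hoxd at 69.0 and 57.0 CPM, so that both groups of genes were high in it. Its top genes included the mural markers Kcnj8, Abcc9 and Rgs5. Doublets were not removed, and whether this cluster mixes mural and endothelial RNA was not tested.

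Basal-like barcodes outside the table held a second cluster with Hoxd RNA. It was led by Psph, Cidea and Acot5 (128 barcodes in the library labelled WT) and held Hoxd at 35.2 CPM and all Hox genes at 90.5 CPM.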
